A study of Saccharomyces cerevisiae with 12 samples.

Results

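The autophagy-related (ATG) genes of budding yeast were examined here in poly(A) site profiles of the rpb4Δ and ubp8Δ strains. A gene was a member if the profiles give it a standard name made of ATG and a number. This rule picked 31 of the 5798 ORFs, and it used no measured value. The rpb4Δ strain carries RPB4::HIS3 and so lacks Rpb4, a subunit of RNA polymerase II (Pol II). The ubp8Δ strain carries UBP8::HIS3 and so lacks Ubp8, the ubiquitin protease of the SAGA coactivator. Both strains also carry RPB3::RPB3-3xFLAG NAT, a tagged Pol II subunit, and both were grown in YPD at 30 °C to mid-log phase. No 3′ READS profile of an undeleted strain was used, so each value compares the deletion strains with each other only.

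Autophagy carries cytoplasm and organelles to the vacuole inside a double membrane. The Atg1 kinase starts it, a phosphatidylinositol 3-kinase and Atg9 vesicles build the membrane, and the ubiquitin-like proteins Atg12 and Atg8 are conjugated to expand it. Receptors choose the cargo, and a vacuolar lipase opens the delivered vesicle. In rich medium bulk autophagy is held low by the TOR kinase, while the related Cvt pathway still brings aminopeptidase I to the vacuole. The 3′ end of each of these mRNAs is set by cleavage and polyadenylation downstream of the stop codon, at more than a single site in most yeast genes.

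3′ READS sequences the 3′ ends of polyadenylated RNA. The authors pooled 2 replicates per strain, so there is 1 profile per strain and no replicate error. No test between the strains was possible, and the 95% intervals below cover counting error only. The reads were amplified by PCR and no molecular identifiers are named, so even for counting error these intervals may be too narrow. Signal is in RPM as deposited, over a window of 400 nt past the stop codon, and the scaling behind it is not described in the sources used here. Each molecule gives 1 end, so levels were not divided by gene length. The ORF windows held 1977159 reads in rpb4Δ and 13034213 in ubp8Δ, a depth ratio of 6.59, and 3 reads amount to 1.19 RPM in rpb4Δ and 0.184 RPM in ubp8Δ. The deleted genes matched the labels, with 0 reads in the RPB4 ORF in rpb4Δ against 244 in ubp8Δ. The UBP8 ORF had 12 reads in rpb4Δ and 0 in ubp8Δ.

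The ATG genes share no common place for their poly(A) sites. Of the 22 with at least 20 window reads in both strains, 10 (45.5%) had the same highest nucleotide in both, against 60.5% of all ORFs. In the other 12 the highest sites differed, in 4 of them by 1 to 10 nt. Sequences around the highest sites are given for the 8 genes in which these sites lay over 10 nt apart, followed by ATG5 and ATG11, which kept theirs and were chosen after their values were seen. Each run is 30 bases of the sense strand, which reads like the mRNA (R64, the SacCer3 assembly), 5′ to 3′, and the capital marks the highest site. In ATG27 the nucleotides at 34, 46 and 123 nt had 13 reads each in rpb4Δ, and the nearest is shown. All As at a fragment's end are trimmed, so the cleaved base can lie further downstream where the genome encodes As after the capital. An A followed the highest site in 22 of the 22 genes in rpb4Δ and in 21 in ubp8Δ, against 91.0% and 91.3% of all ORFs.
ATG8 in rpb4Δ, chrII:80195-80224, minus strand: gttttgtacacaacggagcCaagatttcac
ATG8 in ubp8Δ, chrII:80171-80200, minus strand: tttcaccagtatttggagaCaaatgtgagc
ATG15 in rpb4Δ, chrIII:238928-238957, plus strand: ggcgtcagtcaggtgcaatTaataggtcac
ATG15 in ubp8Δ, chrIII:238966-238995, plus strand: tgcttcaattgctctctagCaaactcacac
ATG20 in rpb4Δ, chrIV:256437-256466, minus strand: aaatgttttaagagatgccTatatggccaa
ATG20 in ubp8Δ, chrIV:256508-256537, minus strand: taaaatattatgcacttctCttcggattta
ATG27 in rpb4Δ, chrX:89238-89267, minus strand: ttacaattcgatatttttgCaacagcagtg
ATG27 in ubp8Δ, chrX:89182-89211, minus strand: ctctaagcttttatatctaCattatactaa
ATG31 in rpb4Δ, chrIV:487897-487926, minus strand: ctaaatcagctttggtaatGaagtttatag
ATG31 in ubp8Δ, chrIV:487957-487986, minus strand: aatttgctggcatcggattTattttgatag
ATG2 in rpb4Δ, chrXIV:196281-196310, plus strand: tacacacgcaagtagagagGagttggtggg
ATG2 in ubp8Δ, chrXIV:196382-196411, plus strand: aaatttcagtgacttagccGataaatgaat
ATG9 in rpb4Δ, chrIV:187964-187993, plus strand: ctgtttcctttctttttcgTatttacctaa
ATG9 in ubp8Δ, chrIV:187996-188025, plus strand: gcatatattattcagttccCactaattttg
ATG7 in rpb4Δ, chrVIII:447702-447731, plus strand: taaaatgatcttgctatacTattttgcata
ATG7 in ubp8Δ, chrVIII:447667-447696, plus strand: aatttttgactctaacgttTataacattga
ATG5 in both strains, chrXVI:272208-272237, plus strand: cgcatttaaaagtgtcattCaaatatcgca
ATG11 in both strains, chrXVI:661042-661071, minus strand: gataagtcttgttatcgacTaccaagtttc

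Most ATG mRNAs gave low window signal in these growing cells, with a median of 18.6 RPM in rpb4Δ and 13.6 RPM in ubp8Δ over the 31 genes. The median over all ORFs was 30.8 RPM in rpb4Δ and 29.1 RPM in ubp8Δ. ATG11, the scaffold of selective autophagy, was the highest of the 31 in rpb4Δ at 151 RPM and had 134 RPM in ubp8Δ. ATG5, the target of the Atg12 conjugation, had 122 RPM in rpb4Δ and 99.1 RPM in ubp8Δ. ATG38, a subunit of the autophagy-specific phosphatidylinositol 3-kinase complex, had 94.1 RPM in rpb4Δ and 140.1 RPM in ubp8Δ, the highest of the 31 in that strain. These are moderate levels among all ORFs: ATG11 stood at the 81.7th percentile in rpb4Δ and the 81.0th in ubp8Δ. At the low end ATG10, the E2-like enzyme for Atg12, had 2 window reads in rpb4Δ (0.80 RPM) and 8 in ubp8Δ (0.49 RPM). ATG1, the kinase itself, had 4 window reads in rpb4Δ (1.59 RPM) and 27 in ubp8Δ (1.66 RPM). Both ATG1 and ATG10 thus lay near the limit that 3 reads set in rpb4Δ.

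**Figure D1:**
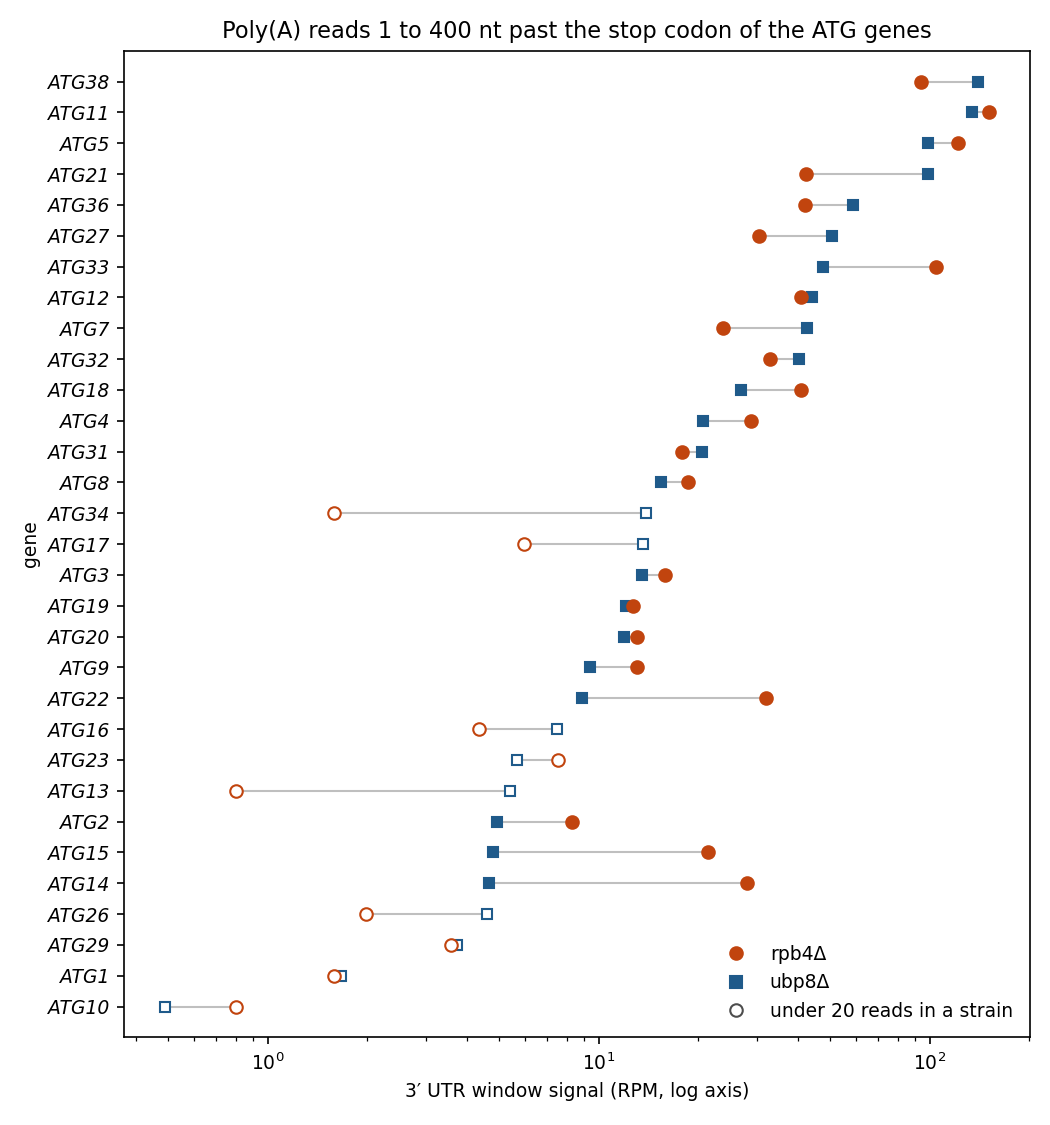
Signal in the window past the stop codon (RPM, log axis) for each of the 31 ATG genes in rpb4Δ (circles) and ubp8Δ (squares), sorted by the ubp8Δ level. Open symbols mark the 9 genes with under 20 window reads in a strain. ATG14, ATG15 and ATG22 have the rpb4Δ symbol furthest to the right of the ubp8Δ symbol, and ATG13 and ATG34 furthest to the left, the last 2 with 2 and 4 reads in rpb4Δ.

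Levels were compared for the 22 ATG genes with at least 20 window reads in both strains. Their median ratio was close to that of all ORFs. The median log2 ratio of rpb4Δ over ubp8Δ was 0.20 for the ATG genes and 0.15 for 4248 ORFs, with 14 ATG genes above 0 and 8 below. At least 2-fold higher signal in rpb4Δ was seen for 4 of the 22 genes (18.2%), against 19.0% of all ORFs. At least 2-fold lower signal was seen for 1 gene (4.55%), against 11.4%. The 9 genes left out all fell short in rpb4Δ, the shallower library, so the limit removes genes low in rpb4Δ. With at least 1 read the median was 0.07 over 31 genes. Then 4 of 31 were at least 2-fold higher, against 18.9% of all ORFs, and 5 were lower, against 17.7%. The share of higher genes was near that of all ORFs, and nothing particular to the ATG genes was read from these counts.

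The 4 higher genes include both members of the vacuolar breakdown group. ATG15 encodes the lipase that opens autophagic bodies, and its window had 54 reads (21.4 RPM) in rpb4Δ and 78 reads (4.79 RPM) in ubp8Δ, a log2 ratio of 2.16 (95% interval 1.63 to 2.67). ATG22 encodes a vacuolar amino acid exporter, and its window had 81 reads (32.0 RPM) in rpb4Δ and 145 reads (8.90 RPM) in ubp8Δ, a log2 ratio of 1.85 (1.44 to 2.25). The largest difference was that of ATG14, the subunit that directs the phosphatidylinositol 3-kinase to autophagy. It had 71 reads (28.1 RPM) in rpb4Δ and 76 reads (4.67 RPM) in ubp8Δ, a log2 ratio of 2.59 (2.10 to 3.07). The fourth, ATG33, a mitochondrial protein needed for mitophagy, had 264 reads (104 RPM) in rpb4Δ and 773 reads (47.5 RPM) in ubp8Δ, a log2 ratio of 1.14 (0.93 to 1.34). ATG33 lay close to the limit, and relative to the median ORF its log2 ratio was 0.99. The lower gene was ATG21, a phosphoinositide-binding protein that recruits the Atg8 conjugation machinery. It had 107 reads (42.3 RPM) in rpb4Δ and 1605 reads (98.6 RPM) in ubp8Δ, a log2 ratio of -1.22 (-1.52 to -0.94).

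ATG14 and ATG15 are next to a gene on the same strand that begins inside the window, VMA2 at 259 nt and CPR4 at 279 nt. In ATG14 this part of the window held 0 reads in rpb4Δ and 2 in ubp8Δ. In ATG15 it held 0 reads in rpb4Δ and 55 in ubp8Δ, and before CPR4 begins ATG15 had 54 reads (21.3 RPM) in rpb4Δ and 23 reads (1.41 RPM) in ubp8Δ. Reads of ATG15 transcripts and of CPR4 transcripts that end early cannot be told apart there. ATG4 is the only other member with such a neighbour, SSU72 at 240 nt, and it had 0 reads in that stretch in both strains. Without these 3 genes, 2 genes were at least 2-fold higher.

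The core conjugation genes with at least 20 window reads in both strains were close in window level between the strains, apart from ATG7. ATG8, the ubiquitin-like protein of the growing membrane, had 47 reads (18.6 RPM) in rpb4Δ and 251 reads (15.4 RPM) in ubp8Δ. Its log2 ratio was 0.27, with an interval of -0.21 to 0.72. ATG3, the E2-like enzyme for Atg8, had 15.8 RPM in rpb4Δ and 13.5 RPM in ubp8Δ, and ATG4, the protease that processes and releases Atg8, had 28.9 RPM in rpb4Δ and 20.7 RPM in ubp8Δ. The interval of ATG3 included 0 and that of ATG4 (0.09 to 0.85) did not. ATG12 had 40.7 RPM in rpb4Δ and 44.2 RPM in ubp8Δ, also with an interval that included 0. ATG7, the E1-like enzyme shared by Atg8 and Atg12, was lower, at 23.7 RPM in rpb4Δ and 42.5 RPM in ubp8Δ, a log2 ratio of -0.84 (-1.25 to -0.46).

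Among the membrane and receptor genes with at least 20 window reads in both strains the ratios went both ways and stayed under 2-fold. ATG9, the lipid scramblase of the Atg9 vesicles, had 13.1 RPM in rpb4Δ and 9.40 RPM in ubp8Δ, and ATG2, the lipid transfer protein, had 8.31 RPM in rpb4Δ and 4.92 RPM in ubp8Δ. ATG18, which binds phosphoinositides with Atg2, had 40.7 RPM in rpb4Δ and 26.9 RPM in ubp8Δ. ATG27, a membrane protein that travels with Atg9, had 30.5 RPM in rpb4Δ and 50.6 RPM in ubp8Δ. The interval of the ratio lay above 0 for ATG18 and below 0 for ATG27. It included 0 for ATG2 and ATG9, whose log2 ratios of 0.76 and 0.47 were -1.28 and -1.14 once reads inside the ORF were added. The mitophagy receptor ATG32 had 32.8 RPM in rpb4Δ and 40.2 RPM in ubp8Δ, and the pexophagy receptor ATG36 had 41.9 RPM in rpb4Δ and 58.8 RPM in ubp8Δ. ATG19, the receptor of the Cvt pathway, had 12.7 RPM in rpb4Δ and 12.1 RPM in ubp8Δ. ATG20, a sorting nexin of the Cvt pathway, had 13.1 RPM in rpb4Δ and 12.0 RPM in ubp8Δ, and ATG31, part of the starvation-specific kinase scaffold, had 17.8 RPM in rpb4Δ and 20.5 RPM in ubp8Δ. For these last 3 genes and for ATG32 the interval of the ratio included 0.

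The other 9 members had under 20 window reads in rpb4Δ, and their ratios were not counted. Among them are 4 of the 6 genes of the Atg1 kinase complex, ATG1, ATG13, ATG17 and ATG29. ATG13, the regulatory subunit that TOR phosphorylates, had 2 reads in rpb4Δ and 88 in ubp8Δ, which is 0.80 RPM in rpb4Δ and 5.41 RPM in ubp8Δ. ATG17, the starvation scaffold, had 15 reads (5.93 RPM) in rpb4Δ and 222 reads (13.6 RPM) in ubp8Δ, and its partner ATG29 had 9 reads (3.57 RPM) in rpb4Δ and 61 reads (3.74 RPM) in ubp8Δ. ATG34, a receptor for alpha-mannosidase under starvation, had 4 reads (1.59 RPM) in rpb4Δ and 226 reads (13.9 RPM) in ubp8Δ. That is the lowest ratio of the 31, with a log2 value of -3.13 and an interval of -5.02 to -1.76. ATG16, the partner of the Atg12-Atg5 conjugate, had 4.36 RPM in rpb4Δ and 7.49 RPM in ubp8Δ. ATG23, a peripheral protein of the Atg9 vesicles, had 7.52 RPM in rpb4Δ and 5.65 RPM in ubp8Δ, and the sterol glucosyltransferase gene ATG26 had 1.98 RPM in rpb4Δ and 4.60 RPM in ubp8Δ. ATG13, ATG17 and ATG34 are the genes of these 9 whose interval lay below 0, and none lay above. The 9 were set apart by few reads in rpb4Δ, which favours low ratios, so no direction was read from this.

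The position of the poly(A) sites differed widely between ATG genes and little between the strains. The weighted average position is the mean distance from the stop codon, weighted by reads. Over the 22 genes its median was 109 nt in rpb4Δ and 111 nt in ubp8Δ, against 122 nt and 123 nt over all ORFs. ATG5 had the nearest sites, at 39.3 ± 0.926 nt in rpb4Δ and 52.4 ± 1.12 nt in ubp8Δ (SE from reads). ATG38 had the furthest, at 355 ± 0.849 nt in rpb4Δ and 359 ± 0.182 nt in ubp8Δ. ATG3 and ATG12 were also distal. ATG3 averaged 305 nt in rpb4Δ and 303 nt in ubp8Δ, and ATG12 averaged 290 nt in rpb4Δ and 278 nt in ubp8Δ. The order of the genes by position was thus mostly kept, with ATG15 as the exception.

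**Figure D2:**
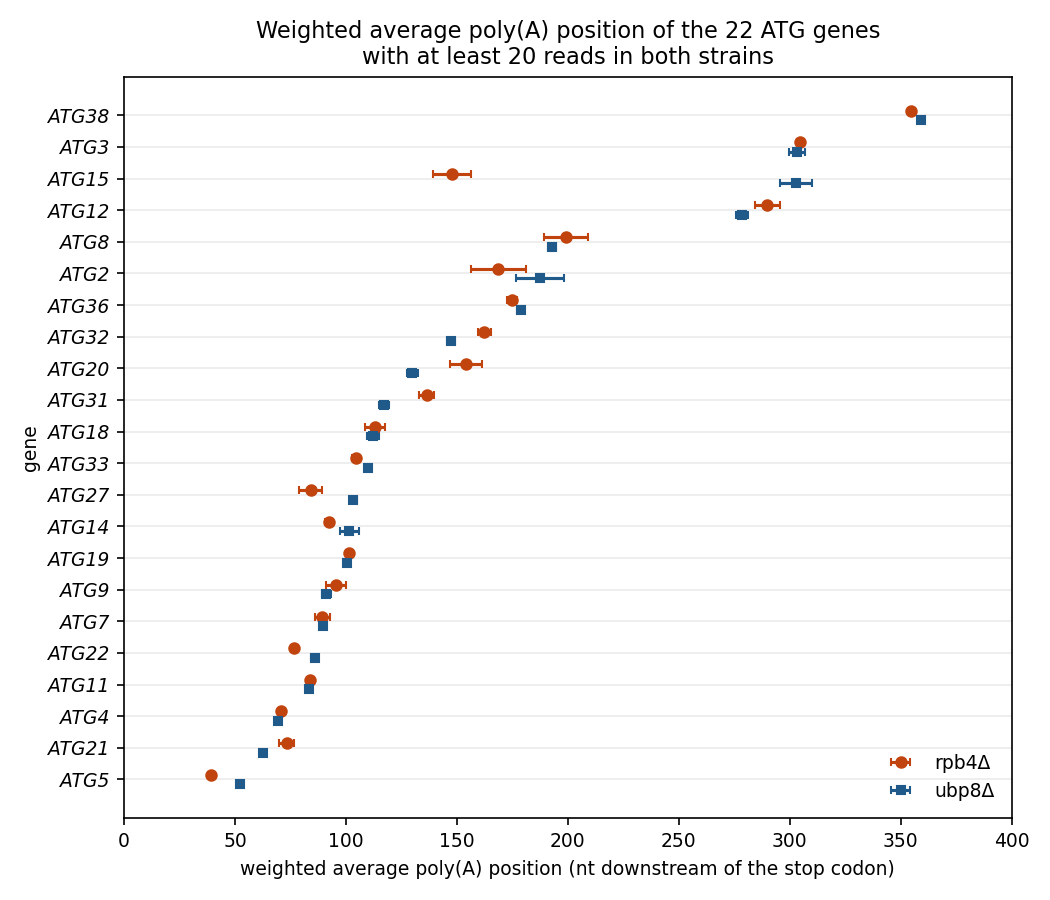
Weighted average poly(A) position in nt downstream of the stop codon for the 22 ATG genes with at least 20 window reads in rpb4Δ (circles) and ubp8Δ (squares), sorted by the ubp8Δ position. Bars are the SE from reads and hold no replicate error. ATG15 is the gene whose symbols lie far apart, at 148 nt in rpb4Δ and 303 nt in ubp8Δ.

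The median difference in position, rpb4Δ minus ubp8Δ, was 0.588 nt for the ATG genes and -0.569 nt for all ORFs. It was positive in 12 genes and negative in 10, and 13 of the 22 lay within 10 nt, against 60.8% of all ORFs. A position at least 20 nt further upstream in rpb4Δ was seen for 1 gene, ATG15 (4.55%), against 10.9% of all ORFs. A position at least 20 nt further downstream was seen for 1 gene, ATG20 (4.55%), against 9.06%. Just under the limit were ATG27 at -19.3 nt, ATG2 at -18.7 nt and ATG31 at 19.3 nt. The interval of ATG2 (-50.8 to 13.4 nt) included 0, since ATG2 had 21 reads in rpb4Δ.

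ATG15 averaged 148 ± 8.60 nt in rpb4Δ and 303 ± 7.25 nt in ubp8Δ, a difference of -155 nt (95% interval -177 to -133). Its sites barely overlapped. The highest rpb4Δ site at 171 nt held 21 of 54 reads in rpb4Δ and 2 of 78 in ubp8Δ. The highest ubp8Δ site at 209 nt held 0 reads in rpb4Δ and 21 in ubp8Δ. The 55 ubp8Δ reads past 279 nt lie in the CPR4 ORF and make up 70.5% of the ubp8Δ window. Over the stretch before CPR4 the averages were 148 nt in rpb4Δ and 206 nt in ubp8Δ, so ATG15 reads still ended nearer the stop codon in rpb4Δ, over 23 reads in ubp8Δ. Only 1 nucleotide with reads was common to the strains, and it held 38.9% of the rpb4Δ reads and 2.56% of the ubp8Δ reads.

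ATG20 averaged 154 ± 7.09 nt in rpb4Δ and 129.99 ± 2.27 nt in ubp8Δ, a difference of 24.1 nt (9.54 to 38.7). The difference did not hold without positions before a genomic A, where it was -0.585 nt on 1 read in rpb4Δ and 94 in ubp8Δ, and with 33 rpb4Δ reads ATG20 was not compared at a minimum of 50. The reads fell into 2 clusters. The near cluster, 110 to 140 nt, held 12 of 33 reads (36.4%) in rpb4Δ and 165 of 195 (84.6%) in ubp8Δ. The far cluster, 180 to 210 nt, held 18 reads (54.5%) in rpb4Δ and 28 reads (14.4%) in ubp8Δ. The far site that led in rpb4Δ, at 186 nt, had 13 reads in rpb4Δ and 1 in ubp8Δ, whereas the ubp8Δ reads of this cluster were mostly at 208 nt, with 0 reads in rpb4Δ and 24 in ubp8Δ. The near site that led in ubp8Δ, at 115 nt, had 1 read in rpb4Δ and 85 in ubp8Δ.

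ATG8 showed a change of leading site with little change of average, at 199 ± 9.87 nt in rpb4Δ and 193 ± 1.71 nt in ubp8Δ. The site at 173 nt held 25 of 47 reads (53.2%) in rpb4Δ and 49 of 251 (19.5%) in ubp8Δ. The sites from 180 to 200 nt held 6 reads (12.8%) in rpb4Δ and 151 reads (60.2%) in ubp8Δ. Within them the site at 187 nt had 0 reads in rpb4Δ, which allows a share of up to 6.38%, and 53 reads (21.1%) in ubp8Δ. The nearer site therefore led in rpb4Δ and the further cluster in ubp8Δ, while some rpb4Δ reads lay near the end of the window.

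ATG27 and ATG31 differed in opposite directions in average position. ATG27 had no single highest site in rpb4Δ, since 34, 46 and 123 nt held 13 reads each, and its highest site in ubp8Δ at 90 nt lies between them. The site at 123 nt had 16.9% of the reads in rpb4Δ and 11.0% in ubp8Δ. The stretch from 30 to 50 nt had 27 of 77 reads (35.1%) in rpb4Δ and 30 of 824 (3.64%) in ubp8Δ. The cluster from 80 to 100 nt had 25 reads (32.5%) in rpb4Δ and 611 reads (74.2%) in ubp8Δ. In ATG31 the site at 165 nt had 15 of 45 reads (33.3%) in rpb4Δ and 0 of 334 in ubp8Δ, which allows a share of up to 0.898%. The site at 105 nt, highest in ubp8Δ, had 14 reads (31.1%) in rpb4Δ and 51 reads (15.3%) in ubp8Δ. The highest rpb4Δ site of ATG31 was thus without reads in the deeper ubp8Δ library.

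Of the remaining genes with separate leading sites, ATG7 had 7 and ATG9 had 5 nucleotides with reads in both strains. ATG2 had 2, which held 30% of its ubp8Δ reads. It had 14 of 21 reads at 198 nt in rpb4Δ and 13 of 80 in ubp8Δ, and its site at 299 nt had 0 reads in rpb4Δ and 26 in ubp8Δ. In ATG7 the site at 116 nt held 35.0% of the reads in rpb4Δ and 11.0% in ubp8Δ, and the site at 81 nt held 0 of 60 reads in rpb4Δ and 125 of 692 in ubp8Δ. The averages of ATG7 were 89.4 nt in rpb4Δ and 89.7 nt in ubp8Δ all the same. In ATG9 the clusters at 60 to 70 nt and 90 to 110 nt held 33.3% and 39.4% of the reads in rpb4Δ, and 36.6% and 35.3% in ubp8Δ. These bounds leave out a site at 73 nt with 0 reads in rpb4Δ and 13 in ubp8Δ. For ATG9 the leading nucleotide thus differed, and the clusters had like shares only within these bounds.

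**Figure D3:**
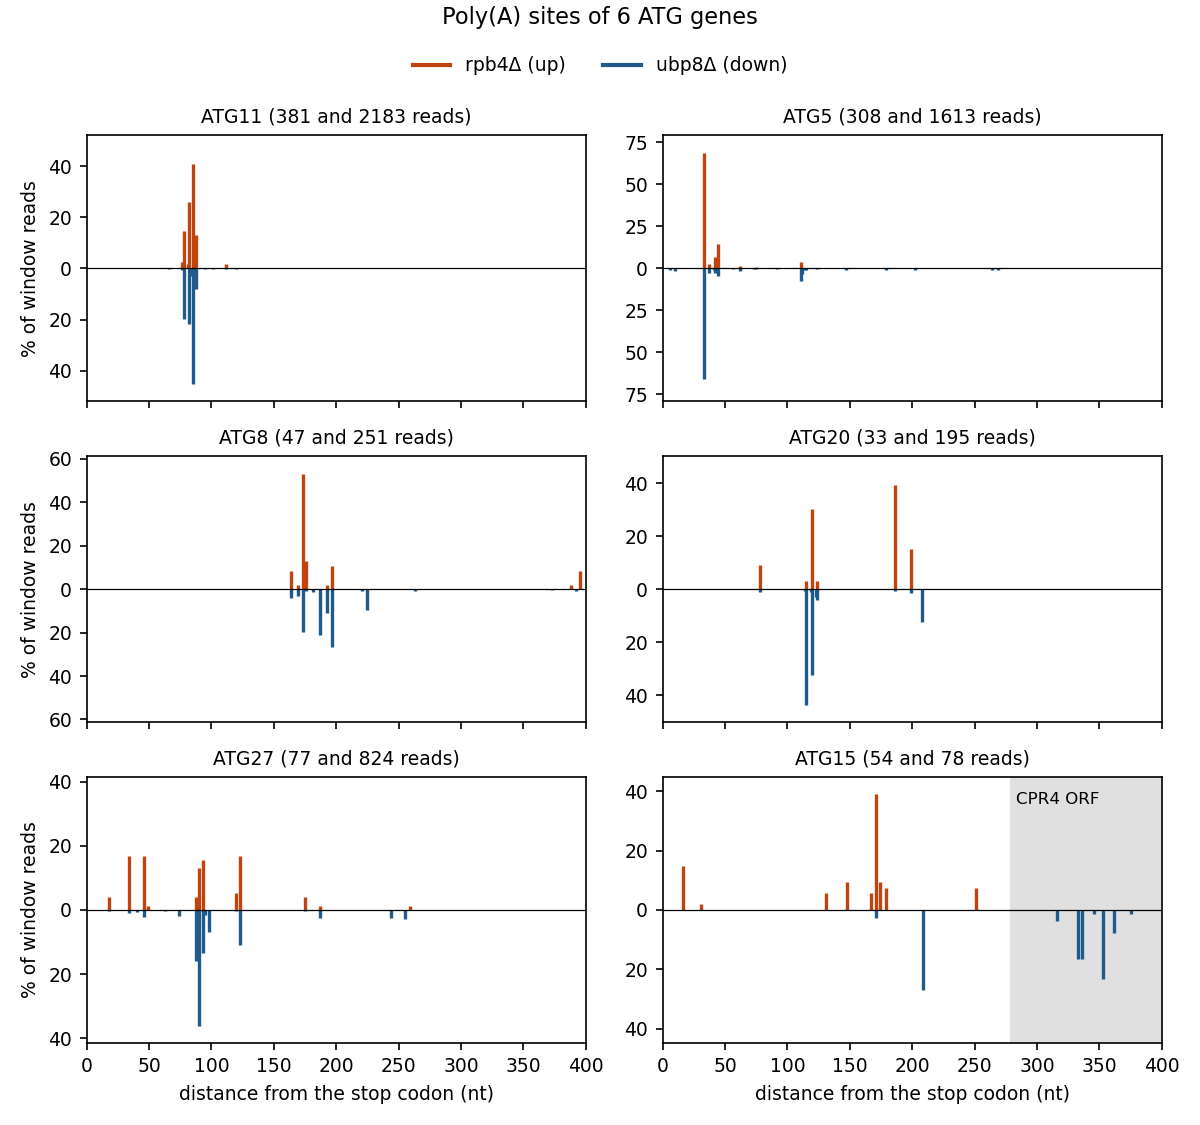
Percent of window reads at each nt downstream of the stop codon for 6 ATG genes, rpb4Δ upward and ubp8Δ downward, with the reads of rpb4Δ and then ubp8Δ in each panel title. ATG11 and ATG5 share their highest site, at 85 and 33 nt. In ATG8 the highest sites are at 173 nt in rpb4Δ and 197 nt in ubp8Δ, and the shaded part of ATG15 is the ORF of CPR4 on the same strand, from 279 nt on.

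Other genes kept their leading nucleotide. ATG11 had 155 of 381 reads (40.7%) at 85 nt in rpb4Δ and 986 of 2183 (45.2%) in ubp8Δ, and the stretch from 70 to 90 nt held 98.2% of its reads in rpb4Δ and 98.8% in ubp8Δ. ATG5 had 212 reads (68.8%) at 33 nt in rpb4Δ and 1066 reads (66.1%) in ubp8Δ. The reads of ATG5 past 50 nt were 6.82% in rpb4Δ and 20.3% in ubp8Δ, and its averages differed by -13.0 nt (-15.9 to -10.2). ATG38 had 50.8% of its reads at 363 nt in rpb4Δ and 61.4% in ubp8Δ. ATG3, ATG4, ATG14, ATG18, ATG21, ATG33 and ATG36 also had the same highest nucleotide in both strains. In total 10 of 22 genes (45.5%) shared it, against 60.5% of all ORFs, and 14 of 22 had highest sites within 10 nt, against 73.9% of all ORFs. Among the 14 genes with 20 to 100 reads in rpb4Δ 3 kept the nucleotide, against 46.5% of 1680 ORFs in that range, and the part of read number in this was not tested further.

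The number of sites per gene differed less once the read numbers were made equal. With all reads the median was 8 sites in rpb4Δ and 12 in ubp8Δ. With the deeper library reduced by calculation to equal reads it was 8 in rpb4Δ and 8.93 in ubp8Δ, against 13 and 14.1 over all ORFs. At equal reads 15 of the 22 ATG genes (68.2%) had fewer sites in rpb4Δ and 7 had more, near the 66.2% of all ORFs with fewer. The nucleotides with reads in both strains held a median of 94.8% of the rpb4Δ reads and 82.2% of the ubp8Δ reads of an ATG gene. Over all ORFs these medians were 94.4% in rpb4Δ and 88.1% in ubp8Δ.

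Among the 9 genes with few rpb4Δ reads, ATG17 had its highest site at 223 nt in both strains, with 9 of 15 reads in rpb4Δ and 154 of 222 in ubp8Δ. ATG23 had 13 of 19 reads at 211 nt in rpb4Δ and 0 of 92 in ubp8Δ, while its cluster at 50 to 70 nt had 0 reads in rpb4Δ and 34 in ubp8Δ. ATG16 had 0 reads from 380 to 400 nt in rpb4Δ and 49 of 122 in ubp8Δ. ATG34 had 0 reads at its ubp8Δ maximum of 12 nt in rpb4Δ and 68 in ubp8Δ. With so few rpb4Δ reads these sites cannot be called absent from rpb4Δ.

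Reads inside the ORF made up most of the signal of several autophagy genes, in more of them in ubp8Δ. The share of reads inside the ORF, out of ORF and window reads, could be compared for 23 ATG genes with at least 20 such reads in both strains. It was lower in rpb4Δ for 18 genes (78.3%), higher for 3 and equal for 2, against 75.3% of all ORFs lower and 22.2% higher. At least 10 percentage points lower in rpb4Δ were 9 of the 23 genes (39.1%), against 36.1% of all ORFs, and at least 10 points higher were 0 genes, against 3.45%. The ATG genes thus followed the difference seen over the genome. The median share was 8.75% in rpb4Δ and 9.34% in ubp8Δ, against 3.38% and 11.7% over all ORFs, and the median difference was -6.14 points for the ATG genes and -4.51 points for all ORFs. At 50 or more reads the ATG medians were 3.05% in rpb4Δ and 6.71% in ubp8Δ. At 1 or more they were 0.645% and 9.34%. With the reads of all 31 genes pooled, the share was 11.9% in rpb4Δ and 28.7% in ubp8Δ, against 5.13% and 10.8% over all ORFs.

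ATG14, ATG9 and ATG4 had the largest differences. ATG14 had 15 ORF reads in rpb4Δ, or 17.4% (exact binomial 95% interval 10.1 to 27.1%), and 250 in ubp8Δ, or 76.7% (71.7 to 81.2%). ATG9 had 8 ORF reads in rpb4Δ, or 19.5% (8.82 to 34.9%), and 428 in ubp8Δ, or 73.7% (69.9 to 77.2%). ATG4 had 7 ORF reads in rpb4Δ, or 8.75% (3.59 to 17.2%), and 508 in ubp8Δ, or 60.1% (56.7 to 63.4%). In ubp8Δ most poly(A) reads of these 3 genes were therefore inside the coding sequence, and in rpb4Δ most were downstream of it. They were spread over 20 ORF nucleotides in ATG14, 38 in ATG9 and 36 in ATG4 in ubp8Δ.

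The same order held for ATG7, ATG2, ATG3, ATG19, ATG21 and ATG26. ATG7 had 0 of 60 reads in the ORF in rpb4Δ and 281 reads (28.9%) in ubp8Δ. With 3 reads as the limit, 0 of 60 allows a share of up to 5%, and the exact interval reaches 5.96%. Its ORF signal was thus at least 14.6-fold lower in rpb4Δ, taking 3 reads as the limit there. ATG2 had 61.1% of its reads in the ORF in rpb4Δ and 90.5% in ubp8Δ. ATG26 had 82.1% in rpb4Δ and 92.8% in ubp8Δ, and its intervals overlapped. ATG3 had 13.0% in rpb4Δ and 35.3% in ubp8Δ. ATG19 had 11.1% in rpb4Δ and 28.1% in ubp8Δ, on 4 ORF reads in rpb4Δ, with overlapping intervals. ATG21 had 31.0% in rpb4Δ and 44.3% in ubp8Δ.

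**Figure D4:**
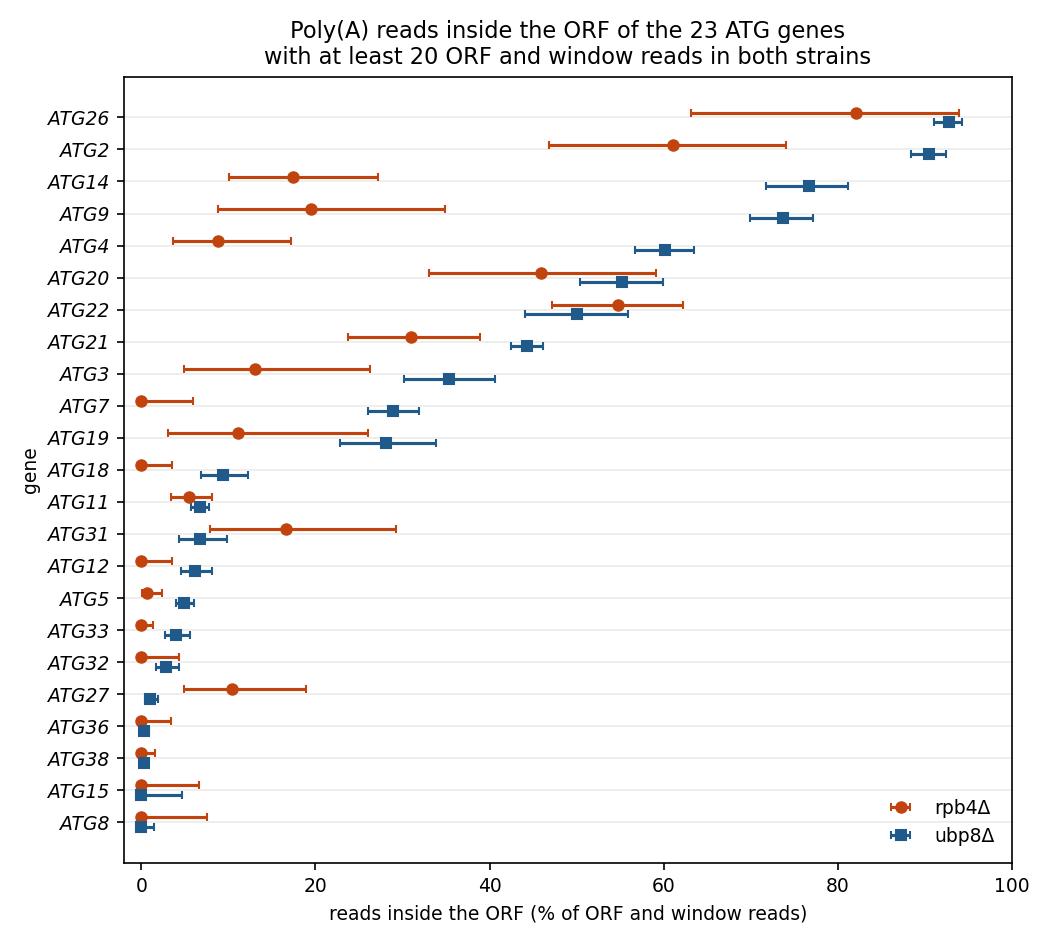
Reads inside the ORF as a percent of ORF and window reads for the 23 ATG genes with at least 20 such reads in rpb4Δ (circles) and ubp8Δ (squares), sorted by the ubp8Δ share. Bars are exact binomial 95% intervals. ATG14, ATG9 and ATG4 have the widest gaps, from 8.75 to 19.5% in rpb4Δ and from 60.1 to 76.7% in ubp8Δ.

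The remaining tested genes had smaller differences. ATG22 was the sole gene besides ATG27 and ATG31 with a higher share in rpb4Δ, at 54.7% in rpb4Δ (98 reads) and 50% in ubp8Δ (145 reads), with overlapping intervals. ATG31 had 16.7% in rpb4Δ and 6.70% in ubp8Δ, on 9 and 24 ORF reads at 2 nucleotides in each strain. ATG27 had 10.5% in rpb4Δ and 0.962% in ubp8Δ, on 9 and 8 reads. ATG20 had 45.9% in rpb4Δ and 55.2% in ubp8Δ. ATG8 and ATG15 had 0 ORF reads in both strains, and 0 of 251 reads in ubp8Δ allows a share of up to 1.20% for ATG8. The shares of ATG5, ATG11, ATG12, ATG18, ATG32, ATG33, ATG36 and ATG38 were between 0 and 5.46% in rpb4Δ and between 0.306% and 9.34% in ubp8Δ.

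ATG1 had too few rpb4Δ reads to be counted, and its ORF held most of its reads in both strains. There were 12 ORF reads at 2 nucleotides in rpb4Δ (4.75 RPM) and 509 at 39 nucleotides in ubp8Δ (31.3 RPM), beside the 4 and 27 window reads given above. The shares were 75.0% in rpb4Δ (47.6 to 92.7%) and 95% in ubp8Δ (92.8 to 96.7%). ATG13 had 5 ORF reads in rpb4Δ and 175 in ubp8Δ, and ATG10 had 0 in rpb4Δ and 98 in ubp8Δ. For ATG1, ATG10 and ATG13, then, more of the poly(A) reads of ubp8Δ were inside the ORF than in the window. In total 5 of the 31 ATG genes in rpb4Δ and 9 in ubp8Δ had more ORF than window reads. Of the 23 compared these were 3 in rpb4Δ and 6 in ubp8Δ, against 8.80% and 18.3% of all ORFs.

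The share of reads inside the ORF was higher in longer ORFs, and whether length or level accounts for this was not tested. Over the 23 ATG genes the Spearman correlation of ORF length and ORF share was 0.49 in rpb4Δ and 0.62 in ubp8Δ, against 0.47 and 0.55 over 4603 ORFs. These are correlations across genes of the same libraries, given as a description. ATG11 departs from this order, because its ORF of 3537 nt held 5.46% of the reads in rpb4Δ and 6.71% in ubp8Δ. The share was also lower where the window signal was high. The Spearman correlation was -0.54 in rpb4Δ and -0.55 in ubp8Δ over the ATG genes, against -0.47 and -0.62 over all ORFs. The share contains the window reads, so these values are not independent.

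Adding ORF and window signal changes the comparison of level for the genes with many ORF reads. ATG14 had 34.0 RPM in rpb4Δ and 20.01 RPM in ubp8Δ, a log2 ratio of 0.77 in place of 2.59 for the window. ATG9 had 16.2 RPM in rpb4Δ and 35.7 RPM in ubp8Δ, a log2 ratio of -1.14 in place of 0.47. ATG2 and ATG4 turned in the same way, to -1.28 and -0.72, and so did ATG3, ATG19 and ATG20, with smaller values of -0.20, -0.24 and -0.14 in place of 0.23, 0.07 and 0.13. ATG1 was at 6.34 RPM in rpb4Δ and 33.0 RPM in ubp8Δ, against near-equal window values. ATG7 passed the 2-fold limit, at -1.33 in place of -0.84. ATG26, compared for the ORF share only, was at -2.53. ATG22, ATG15 and ATG33 stayed higher in rpb4Δ at 1.99, 2.16 and 1.08, and ATG21 stayed lower at -1.53. The median of this log2 ratio was -0.21 over the 23 ATG genes and -0.14 over all ORFs. In total 6 of the 22 genes, ATG2, ATG3, ATG4, ATG9, ATG19 and ATG20, changed sign when reads inside the ORF were counted, against 12.0% of all ORFs.

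The sequence and the neighbours of the sites were compared with those of all ORFs as a description. TATATA, a form of the efficiency element of yeast poly(A) signals, was searched on the sense strand in the 100 nt upstream of the highest ubp8Δ site. It was present in 12 of the 22 ATG genes (54.5%) and in 43.6% of all ORFs, and the 12 include ATG5, ATG8, ATG9, ATG20 and ATG27. Where the highest site lies under 100 nt from the stop codon, the searched bases include coding sequence. Among these 5 genes that holds for ATG5 (33 nt), ATG27 (90 nt) and ATG9 (97 nt). AATAAA, a form of the positioning element, was present in ATG19, ATG21, ATG33 and ATG38, 18.2% of the 22, and in 18.8% of all ORFs. The motifs can overlap at their ends. An ORF of the opposite strand lay within the window in 17 of the 31 ATG genes (54.8%) and in 41.8% of all ORFs. The highest ubp8Δ site lay inside such an ORF in ATG11, ATG20, ATG22 and ATG31 of the 22, against 11.8% of all ORFs.

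A further 25 autophagy genes without an ATG name, such as the phosphatidylinositol 3-kinase VPS34, the TOR kinases and vacuolar proteases, were described in the same way. Of the 15 with enough window reads, 2 were at least 2-fold higher in rpb4Δ (APE1 and PRB1), against 19.0% of all ORFs. At least 2-fold lower was 1 gene (KOG1), against 11.4%, and the median log2 ratio was 0.13. APE1, the aminopeptidase carried by the Cvt pathway, had 46.7 RPM in rpb4Δ and 20.4 RPM in ubp8Δ. PRB1, a vacuolar protease, had 42.4 RPM in rpb4Δ and 11.4 RPM in ubp8Δ. These are window levels, and reads inside the ORF were not added for these genes. APE1 had 0 ORF reads beside 118 window reads in rpb4Δ, and 71 beside 332 in ubp8Δ. For PRB1 there were 5 ORF reads beside 107 window reads in rpb4Δ, and 1224 beside 185 in ubp8Δ. The window ratio of PRB1 therefore cannot be read as more poly(A) reads of the gene in total. The sites were at least 20 nt upstream in rpb4Δ for APE1, PRB1 and VTI1, against 10.9% of all ORFs, and downstream for LST8, against 9.06%. The highest nucleotide was the same in 10 of the 15, against 60.5% of all ORFs. The ORF share was at least 10 points lower in rpb4Δ in 10 of 17 genes (58.8%), against 36.1% of all ORFs, and at least 10 points higher in 0, against 3.45%. The extreme case was PRB1, with 4.46% of its reads in the ORF in rpb4Δ (5 reads) and 86.9% in ubp8Δ (1224 reads).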

How the data were processed

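3′ READS profiles of the rpb4Δ and ubp8Δ strains were analysed. NET-seq data were not analysed here. The authors removed leading Ts of read 1, placed the following 17 bases uniquely and exactly on SacCer3 with bowtie, selected reads with unencoded As, and pooled 2 replicates per strain. Each deposited position value is a percent of the highest nucleotide of its feature, and the deposited window, highest-position and ORF signals are in RPM; the scaling is not described in the sources used here.

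Dividing by the common step of the RPM values (0.395 in rpb4Δ, 0.0614 in ubp8Δ) gave whole reads. Of the values tested, 4611 of 4611 and 4917 of 4917 were whole within 0.1 reads. This corresponds to libraries of about 2.53e+06 and 1.63e+07 reads. Reading the step as 1 read rests on the values alone.

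Genes were compared at 20 or more window reads (for the ORF share, ORF and window reads) in both strains, with limits of 2-fold, 20 nt and 10 percentage points. Ratio intervals are exact conditional binomial, shares Clopper-Pearson, and position intervals from the SE over reads. Sites at equal reads were obtained by rarefaction. Of nucleotides with equal reads the nearest to the stop codon was taken as the highest site. Every member was named, with full values for those past a limit, the highest and lowest in level, and ATG1, ATG8 and ATG9. Members, lists and limits were chosen with earlier results of these data known. Sums of ORF and window signal, clusters of sites, the 20 to 100 read range, tied sites and correlations were added after values were seen. The ORF interval includes any intron. All 31 ATG ORFs had the same coordinates in the RefSeq annotation of R64. Python 3.11.15, numpy 2.4.6, pandas 2.3.3, scipy 1.17.1 and matplotlib 3.10.9 were used, and the functions were tested on simulated data.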

Additional observations from a re-analysis of the deposited data

How the results depend on the processing

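No paired analysis was possible because the authors pooled the replicates of each strain, and for the same reason no replicate could be left out. Of the alternative values for counts and medians 52 were classed as same, 23 as moved and 2 as reversed. For single genes 37 were classed as same, 8 as moved and 1 as reversed. The class of same values is broad and does not mean close. It holds the median ORF share in rpb4Δ of 0.645% with at least 1 read, against 8.75%. The cause was not tested unless stated. The number of genes is 22 unless given, and the share of all ORFs under the same setting follows each count. Genes lower in rpb4Δ were 5 of 31 with at least 1 read (17.7%; more genes compared) and 3 at a 1.5-fold limit (22.01%). Without windows that reach a same-strand feature, as ATG14 and ATG15 drop out, 2 of 19 were higher (18.6%) and 0 lay at least 20 nt upstream (11.3%). The median position difference reversed to -3.75 nt at 50 or more reads and to -5.42 nt without positions before a genomic A, where ATG20 reversed to -0.585 nt on 1 read in rpb4Δ. This last setting drops the highest rpb4Δ site of all 22 genes and leaves 1 rpb4Δ read in ATG15 too. Its values, here and in the counts below, therefore cannot be weighed like those of the other settings. Genes further upstream in rpb4Δ were 3 of 31 with at least 1 read (14.3%), 2 by the weighted median (9.49%), 5 by the highest site (10.5%), 2 with sites of at least 1% of signal (10.8%), 5 of 18 without positions before a genomic A (20.02%) and 4 at a 10 nt limit (20.9%). Genes further downstream were 0 of 15 at 50 or more reads (7.25%), 4 of 31 with at least 1 read (12.9%), 2 by the weighted median (7.91%), 3 by the highest site (9.93%), 2 of 18 without positions before a genomic A (17.2%), 5 at 10 nt (18.3%) and 0 at 40 nt (3.34%). With the furthest of tied highest sites, chosen after seeing the data, 4 were upstream (9.89%) and 4 downstream (10.5%), as ATG27 changes side. Counting only sites of at least 5% of signal gave a median of 5 sites in rpb4Δ and 5 in ubp8Δ. The ORF share was at least 10 points lower in rpb4Δ in 5 of 18 genes at 50 or more reads (31.9%), and at least 5 points higher in 2 of 23 (6.45%). Depth limits what can be said of rpb4Δ: with a median of 47 window reads per ATG gene, against 222 in ubp8Δ, a site that holds a few percent of the reads can be missed there.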
